A study of Mus musculus with 2 samples.

Results

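The genes described here are 47 lysosomal genes, taken as a fixed list of symbols from the 21755 protein-coding genes annotated on the mouse autosomes and the X chromosome. All 47 symbols matched 1 gene each. They comprise 12 proteases, 11 glycosidases, 5 sulfatases, 9 genes for lipid hydrolases, their activators and cholesterol carriers, 8 membrane proteins, the acid phosphatase Acp2 and the transcription factor Tfeb. The other 21708 protein-coding genes served for comparison.

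The study measured open chromatin by ATAC-seq, in which the Tn5 transposase cuts and tags DNA that is not covered by nucleosomes, so that sequenced fragments pile up at accessible sites. The samples were primary granulocyte monocyte progenitors (GMP), a stage of marrow haematopoiesis whose progeny are neutrophils and monocytes. They came from adult male C57BL/6J mice of 5 to 6 weeks, with 50000 cells put into each library. There was 1 group of 2 biological replicates, separate biosamples under the same donor label, with no treatment, mutation or second cell type in the labels. Nothing in the sources used here gives how the cells were sorted or how many animals each biosample pooled, and agreement between the replicates may measure technical spread in part.

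A lysosome is the acidic compartment in which cells break down proteins, glycans, lipids and nucleic acids delivered by endocytosis, phagocytosis and autophagy. Its soluble hydrolases reach it through the mannose phosphate route, the vacuolar proton pump acidifies it, and heavily glycosylated membrane proteins line it. TFEB and its relatives of the MiT/TFE family bind the CLEAR element, an E-box with fixed flanking bases found in promoters of many lysosomal genes, and in myeloid cells several of these hydrolases also serve phagocytosis, antigen processing and the maturation of granule proteases.

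The CLEAR element is the sequence feature by which this gene group is best known, so the matches in the members' promoters are shown here before the accessibility values. The motif searched, called the CLEAR core, was TCACGTGA or GTCACGTG on either strand, so that CACGTGAC also counted. The 2 forms can overlap, and each contains the E-box CACGTG. The sequences below came from RefSeq promoters (GRCm38.p6, 250 bases before to 50 after a gene's start), are written 5′ to 3′ on the gene's own strand and have the match in capitals.
Ctsa, chr2:164833749-164833772, plus strand: tgagcaaactGTCACGTGAtgcag
Cln3, chr7:126583340-126583369, minus strand: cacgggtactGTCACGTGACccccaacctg
Ctsd, chr7:142387908-142387936, minus strand: cgcccgcgtcTCACGTGACccgttgaggg
Mcoln1, chr8:3500463-3500491, plus strand: ggcgccccgcTCACGTGACcgcggcgcat
Lamp1, chr8:13159123-13159150, plus strand: tgccgactggCACGTGACcacatcacgt
Glb1, chr9:114401018-114401045, plus strand: ctgcttctgaGTCACGTGgcctacagag
Naglu, chr11:101070009-101070036, plus strand: caaccttcagGTCACGTGgcccgaggtc
Sgsh, chr11:119355522-119355549, minus strand: gcctgccgtgCACGTGACcgtggggagc
Arsa, chr15:89477425-89477452, minus strand: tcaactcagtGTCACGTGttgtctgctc
Gla, chrX:134601183-134601211, minus strand: tgagatctcgGTCACGTGAgcaactctcg
These 10 genes were all the members with a CLEAR core among the 42 members with a RefSeq promoter entry, a share of 23.8%. The share was 3.53% of 16391 other genes with an entry. Ctsb, Ctsh, Galns, Asah1 and Npc1 had no entry. Mcoln1, Ctsd, Gla and Ctsa held a further match each, beginning at -73, -245, -228 and +4 bp from the RefSeq start. The match in Cln3 spans the full palindrome of 10 bases, which 2.38% of the members' entries and 0.488% of the other genes' entries contained.

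A promoter was called open when the series-level list of accessible regions held a region whose summit lay within 1000 bp of any annotated start of the gene. That list is the authors' conservative list of peaks that passed a reproducibility threshold (irreproducible discovery rate, IDR). Its overlapping rows were merged to 75148 regions, of which 17403 were promoter regions and 57726 were distal. Each replicate's own thresholded list gave 65423 regions in replicate 1 and 53686 in replicate 2. All 8 granulocyte monocyte progenitor marker genes, among them Mpo, Elane and Cebpa, had open promoters, where 62.7% of all protein-coding genes did. The count was 2 of 4 for erythroid, 0 of 4 for T cell, 1 of 4 for hepatocyte and 1 of 4 for muscle markers. The progenitor markers had a median fold of 7.91, from 4.325 to 13.95, and the median of all open genes was 10.24. These calls alone do not identify the cells. Of the B cell markers reported here, Pax5 and Ebf1 were open, with folds of 12.76 and 11.69, and Cd79a was closed. Sequencing depth is unknown, and the fold enrichment quoted for a region is the authors' own value, used to rank regions within a list only.

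Lysosomal genes had open promoters almost throughout. The series-level list called 45 of 47 open (95.7%), where 62.7% of all protein-coding genes were called. Replicate 1 alone called 44 of 47 (93.6%) against 61.4% of all genes, and replicate 2 alone called 45 of 47 against 58.1%. In both replicates together, 44 members were open, where 57.5% of all genes were. The authors' looser replicated list called 46 of 47 (97.9%) against 70.4%. The accessibility of the open promoters was that of open promoters at large: the median fold of the strongest region was 10.5 for members and 10.2 for other open genes, and 23 of the 45 lay above the median of all open genes, 10.24.

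The proteases degrade the proteins delivered to the lysosome, and 10 of 12 had an open promoter, with a median fold of 10.7. Ctsh, a cysteine protease with aminopeptidase activity, had a promoter fold of 15.44 in the series-level list, 14.89 in replicate 1 and 14.49 in replicate 2. Among the open promoters of each list these values ranked at percentiles 92.8, 88.2 and 95.5. Ctso, a less studied cysteine protease, stood at 13.97 in the series-level list, 14.46 in replicate 1 and 11.94 in replicate 2. Ctsc, the dipeptidyl peptidase that activates the serine proteases of neutrophil granules, had folds of 12.06, 10.96 and 12.43 in the same order of lists. Its rank differed between the replicates, at percentile 52.7 in replicate 1 and 85.5 in replicate 2. The other open proteases were Tpp1 (fold 11.08), Ctsl (10.96), Ctsf (10.52), Ctsb (8.716), Ctsa (8.247), Ctsd (6.352) and Ctsz. Ctsz, a carboxypeptidase, had the lowest promoter fold of the 45 open members, 4.206 in the series-level list, 4.068 in replicate 1 and 4.378 in replicate 2. It lay at or below percentile 1.09 in all 3 lists, and its strongest summit sat 616 bp upstream of the start.

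The 2 closed members were neighbouring cysteine protease genes on chromosome 3. Ctsk encodes the collagen-degrading protease of osteoclasts, and Ctss encodes the protease that trims the class II invariant chain in antigen-presenting cells. For neither gene did the series-level list, or the thresholded list of either replicate, hold a region at the start. At the start of Ctss, a weak region at -37 bp appeared in the looser replicated list with a fold of 3.691. The looser lists of both single replicates held it too, with folds of 3.548 in replicate 1 and 3.528 in replicate 2. At the start of Ctsk, the looser list of replicate 1 alone held a region, at +421 bp with a fold of 3.119.

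The same locus was strongly accessible away from those starts. The intron of Ctss held a region 3.25 kb into the gene (chr3:95529654-95530224, mm10) with a fold of 16.27 in the series-level list, 17.67 in replicate 1 and 12.49 in replicate 2. Another region of fold 9.006 lay 2.87 kb upstream of Ctss. Between the 2 genes, 12.7 kb downstream of the Ctsk start, a region (chr3:95511780-95512216) reached 16.83 in the series-level list, 17.62 in replicate 1 and 13.23 in replicate 2. The other region assigned to Ctsk lay 4.76 kb upstream, in an exon of Arnt, with a fold of 10.26. Both regions of Ctsk and 3 of the 5 regions of Ctss were in both replicates' thresholded lists. The other Ctss regions, 9.13 kb and 7.71 kb upstream, were in the list of 1 replicate each.

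All 11 glycosidases, which remove sugars from glycoproteins, glycolipids, glycogen and glycosaminoglycans, had an open promoter, with a median fold of 9.81. Gaa, the acid glucosidase that degrades glycogen, had a fold of 14.61 in the series-level list, 16.71 in replicate 1 and 11.49 in replicate 2. Idua, which cleaves iduronic acid from glycosaminoglycans, had folds of 14.36, 14.22 and 13.02 in the same order. At the low end, Hexa, the alpha subunit of beta-hexosaminidase, had folds of 4.926, 5.004 and 4.504, the second lowest of the open members, at percentiles 2.90, 1.68 and 1.46 of the lists. Man2b1, the acid alpha-mannosidase, followed with 6.023 in the series-level list, 6.322 in replicate 1 and 5.557 in replicate 2. Between these ends lay Manba (12.67), Neu1 (11.60), Glb1 (10.45), Naglu (9.811), Fuca1 (8.518), Gla (8.102) and Gusb (7.680) in the series-level list. Naglu, which removes N-acetylglucosamine from heparan sulphate, had the largest difference in rank between the replicates among the members, at percentile 62.2 in replicate 1 and 20.1 in replicate 2.

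The 5 sulfatases, which remove sulphate from glycosaminoglycans and sulpholipids, were all open, with a median fold of 11.7. Galns had a fold of 13.76 in the series-level list, 13.97 in replicate 1 and 12.49 in replicate 2. Ids, on the X chromosome, had folds of 13.72, 13.48 and 12.18. Arsa stood at 11.74, Sgsh at 8.299 and Arsb at 6.553 in the series-level list. The Arsa region lay over an alternative start inside the gene, and with the start at the 5′ end of each gene alone Arsa was not open.

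All 9 genes of lipid breakdown and cholesterol export were open, with the highest median fold of the 5 groups that hold more than 1 gene, 12.1. Lipa, the acid lipase that hydrolyses cholesteryl esters and triglycerides, had the highest promoter fold of all members, 17.47 in the series-level list, 16.87 in replicate 1 and 16.21 in replicate 2. It ranked at percentiles 97.8, 96.1 and 98.8 of the open promoters of those lists. Next in the group were the cholesterol transporter Npc1 (13.02), the sphingomyelinase Smpd1 (12.93), the cholesterol-binding protein Npc2 (12.49), the ganglioside activator Gm2a (12.15) and the ceramidase Asah1 (11.99). Ppt1, which removes palmitate from proteins, had a fold of 9.816 and the galactosylceramidase Galc 7.466. The Galc value came from an intronic region near an alternative start, and the region at its 5′ end had 6.664. Psap, the precursor of the saposins that present sphingolipids to their hydrolases, was the lowest, with 5.724 in the series-level list, 5.849 in replicate 1 and 5.191 in replicate 2.

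The 8 membrane protein genes were open in the series-level list and had the lowest median fold of these groups, 7.53. Mcoln1, the calcium channel of the lysosomal membrane, was highest with 10.67 in the series-level list, 10.94 in replicate 1 and 9.243 in replicate 2. Lamp2 had 10.06, Cln3 9.511 and Scarb2, the receptor that delivers glucocerebrosidase, 8.012. The tetraspanin Cd63 had 7.038, the macrophage sialomucin Cd68 6.583 and the haematopoietic Laptm5 6.468. For Cln3, Scarb2, Cd63 and Laptm5 these values came from regions inside the gene, within 1000 bp of an alternative start. Their regions nearer the 5′ end had folds of 7.807, 2.766, 6.197 and 5.857. By the strongest region, Lamp1, a main glycoprotein of the membrane, was the lowest with 6.070. Its promoter was the only member promoter whose call differed between replicates: replicate 2 called it with a fold of 5.775, while replicate 1 held it in its looser list alone, with a fold of 5.851. Of the remaining members, Acp2 had a fold of 14.59 in the series-level list, 15.08 in replicate 1 and 12.49 in replicate 2. Tfeb, the regulator of the CLEAR network, had 5 promoter regions along its alternative starts. The strongest had folds of 13.55, 14.16 and 11.84 in the same order, and the other 4 ranged in the series-level list from 7.136 to 8.747.

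**Figure D1:**
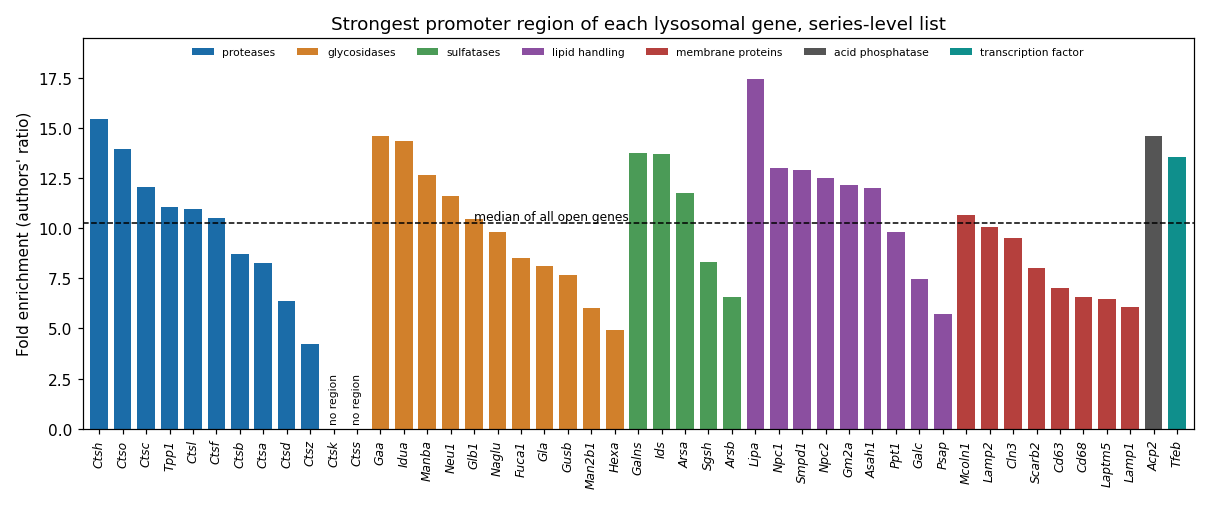
Fold enrichment (authors' ratio, vertical axis) of the strongest promoter region of each of the 47 lysosomal genes in the series-level list, 1 bar per gene, grouped and coloured by role. The dashed line is the median of all open genes, 10.24. Lipa is the tallest bar at 17.47, Ctsz the shortest at 4.206, and Ctsk and Ctss have no region.

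In shape the members' promoters resembled others. The strongest region had a median width of 823 bp for members and 866 bp for other open genes, and its summit lay a median of 46 bp from a start for members and 64 bp for other genes. The summit was within 100 bp of a start in 33 of 45 members (73.3%) and in 63.7% of other open genes. More than 1 promoter region was found for 22 members, and the members' promoter regions numbered 76 in all. The like share of other genes was not computed, so this is no trait of the members. The start of 7 members faced, within 1000 bp, the start of another protein-coding gene on the opposite strand (14.9% of members and 11.1% of other genes). These pairs were Ctsa with Neurl2, Gla with Hnrnph2, Sgsh with Slc26a11, Galns with Trappc2l, Npc2 with Isca2, Cln3 with Apobr, and Acp2 with Nr1h3. In all 7 the neighbours shared a promoter region, and an open call from that region does not belong to the lysosomal gene alone. For Cln3 the shared region had a fold of 7.807, and the strongest region, with 9.511, lay in an intron of Cln3.

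CpG-rich promoters are open in most cell types, and the members were therefore split by the CpG content within 500 bp of the gene's 5′ end, at an observed to expected ratio of 0.6. All 22 CpG-rich members were open, as were 90.7% of 10050 other CpG-rich genes. Among CpG-poor genes, 23 of 25 members (92.0%) and 38.5% of 11658 others were open. When a gene counted as CpG-poor only if every annotated start was CpG-poor, 18 of 20 members (90.0%) and 31.8% of other genes were open. The closed genes Ctsk and Ctss were CpG-poor. Among open CpG-poor genes the median promoter fold was 11.1 for members and 9.64 for others, and among open CpG-rich genes it was 10.3 for members and 10.5 for others.

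**Figure D2:**
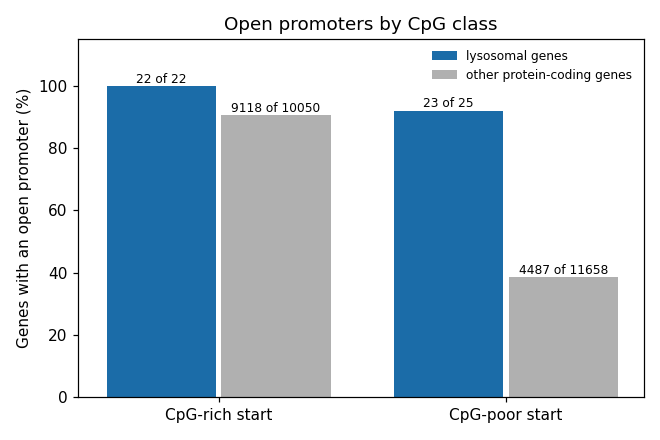
Share of genes with an open promoter in the series-level list (vertical axis, %), for lysosomal genes (blue) and other protein-coding genes (grey), by CpG class at the gene's 5′ end; counts stand above the bars. The share of lysosomal genes is 100% of CpG-rich and 92.0% of CpG-poor genes, and that of other genes 90.7% and 38.5%.

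The CLEAR core was then searched within 100 bp of the summits, the stretch that was most accessible in these cells. It occurred in 10 of the members' 76 promoter regions (13.2%) and in 419 of 17327 other promoter regions (2.42%). In distal regions it occurred in 2 of 164 (1.22%) near members and in 0.790% of the others. Of the 10 genes with a match at a promoter summit, 6 also had it in the RefSeq promoter, namely Arsa, Ctsd, Glb1, Lamp1, Mcoln1 and Naglu. The other 4, of which Ctsb had no RefSeq entry, are shown on the plus strand of GRCm38.p6 with the match in capitals.
Ctsb, chr14:63122431-63122459: cggtcaagcaTCACGTGACgaatcagccc
Hexa, chr9:59539621-59539649: tccctcccgtTCACGTGACcctccgattg
Idua, chr5:108669268-108669295: ctggcgagagGTCACGTGgggcgttacg
Galc, chr12:98215719-98215748: gacagtgaggGTCACGTGACaggtcagtgg
The Galc match is the 10-base palindrome, in an intronic region of the gene whose summit lies 856 bp downstream of an alternative start. A second palindrome was at the accessible alternative start of Arsa.
Arsa, chr15:89476160-89476189: tacgcccgcgGTCACGTGACaattggctga
The Arsa match shown first, just upstream of its RefSeq start, was in no accessible region. The Idua match was in a weaker region of that gene (fold 8.769) around an inner start. The RefSeq match of Cln3 was in a region of fold 4.277 that was in neither replicate's thresholded list.

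By either search of promoters, 14 members carried a CLEAR core: 3 proteases, 5 glycosidases, 2 sulfatases, 1 lipid gene (Galc) and 3 membrane protein genes. Since 10 of the 14 were found at summits of open promoters, their being open is fixed by the search and is no result. Their median promoter fold was 8.51, and that of the 31 open members among the other 33 was 11.6. These folds are those of each gene's strongest region, which for Cln3, Ctsa and Idua was not the region with the match. The other 33 include Gusb and Lamp2, which had a match at a distal summit. The medians therefore do not compare matched with unmatched sites. Those 33 include Ctsh, Galns, Asah1 and Npc1, which were searched at their summits only. Of the 8 members with the highest promoter fold, Lipa, Ctsh, Gaa, Acp2, Idua, Ctso, Galns and Ids, Idua alone had a match. Among CpG-rich genes the RefSeq promoter held the core in 31.6% of members and 5.19% of other genes, and among CpG-poor genes in 17.4% of members and 2.01% of others. The letters of the core include a CpG, and the genes were not otherwise matched for base composition.

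Motifs of haematopoietic factors were searched in the same windows, as letters on both strands. PU.1, the ETS factor that specifies myeloid cells, was read as GAGGAAGT, CEBP, the family of Cebpa, as TTGCNNAA, RUNX as TGTGGTT, AP-1 as TGANTCA, other ETS factors as CCGGAAG and SP factors as GGGGCGGGG. In promoter regions the members had more AP-1 (15.8% against 4.81% of others), CEBP (15.8% against 8.11%) and PU.1 (11.8% against 4.71%) matches. The shares were close for ETS (11.8% and 12.1%), SP (17.1% and 14.5%) and RUNX (5.26% and 4.11%). The cAMP response element TGACGTCA was in 1.32% of members' and 2.37% of other promoter regions, and the NRF1 motif in 3.95% and 5.26%.

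More member promoter regions were CpG-poor around the summit, 48 of 76, than is the case for other promoter regions, 7580 of 17327, and myeloid and AP-1 motifs are commoner in such regions. The regions were therefore split by CpG content within 500 bp of the summit, after the shares above were seen. Within the CpG-poor regions AP-1 was in 18.8% of members' and 7.98% of other regions, PU.1 in 14.6% and 8.13%, and CEBP in 18.8% and 12.6%. Within the CpG-rich regions AP-1 was in 10.7% of members' and 2.35% of other regions, which for the members is 3 regions. The members' shares thus stood above the others' in both classes, from counts of 2 to 9 member regions.

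**Figure D3:**
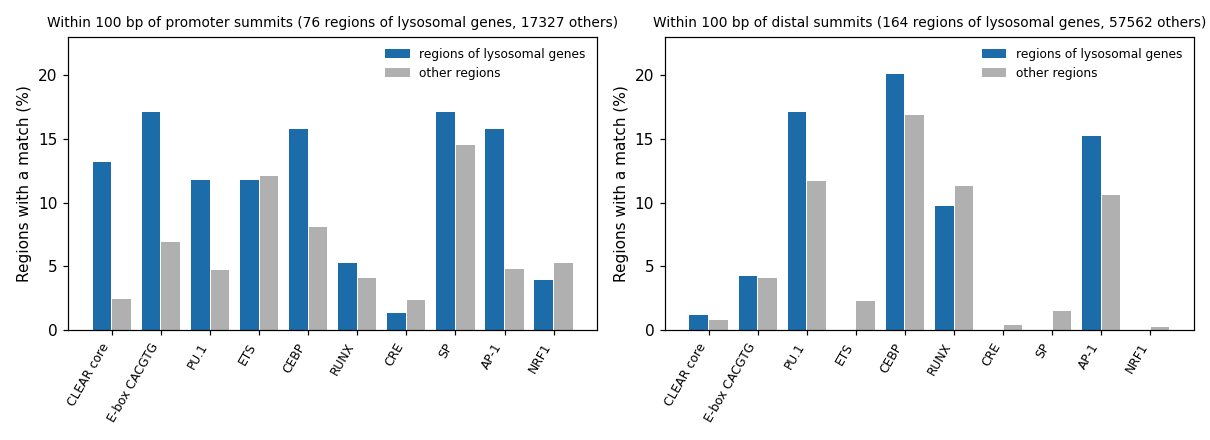
Share of regions (vertical axis, %) with a motif match within 100 bp of the summit, for regions of lysosomal genes (blue) and other regions (grey), at promoters (left) and distal sites (right). At promoters the CLEAR core stands at 13.2% for lysosomal genes and 2.42% for others, and at distal sites at 1.22% and 0.790%.

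Distal regions, assigned to the gene with the nearest start, numbered 164 for the members. At least 1 was assigned to 35 of 47 members (74.5%), where 59.9% of all genes had 1. The median was 3 per member and 1 per other gene, and the means were 3.49 and 2.65. The members reached this in less space, since the stretch closest to a gene's starts and outside promoter windows had a median of 28.2 kb for members and 40.2 kb for others. Per Mb of such territory, pooled over genes, there were 40.9 distal regions for members and 23.4 for other genes. The other genes include those with closed promoters. Whether the members differ from other open genes, or from genes with a like territory, was not tested. The 12 members without any were Acp2, Arsa, Cd68, Cln3, Ctsa, Ctsf, Gaa, Gla, Idua, Man2b1, Mcoln1 and Tpp1.

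The distal regions of members were not stronger than others: their median fold was 7.32, and that of other distal regions 7.93. They lay closer to the start, at a median of 10406 bp for members and 16782 bp for others. Within 10000 bp were 48.8% of the members' and 35.7% of the others'. Assignment to the nearest start limits the distance where the territory is smaller, and its part in this was not tested. Summits were intergenic in 53.0% of members' and 42.1% of other distal regions, intronic in 43.3% and 51.1%, and exonic in 3.66% and 6.84%. Within the body of the assigned gene lay 34.1% of the members' and 44.4% of the other distal regions.

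Ctsc had by far the most distal regions of the members, 22, and 1.19% of all protein-coding genes had as many. The stretch closest to its starts was also wide, 419 kb against the members' median of 28.2 kb. Of the 22 regions, 16 were in both replicates, 2 in replicate 1 only and 4 in neither replicate's thresholded list. They ran from 224 kb upstream to 60.8 kb downstream of a Ctsc start, and the 4 farthest upstream lay in introns of the glutamate receptor gene Grm5. The strongest, in a Grm5 intron (chr7:88054169-88054869), had a fold of 17.92 in the series-level list, 18.92 in replicate 1 and 12.74 in replicate 2. The next, 75.9 kb upstream in intergenic DNA (chr7:88201725-88202330), had folds of 16.52, 16.30 and 14.36.

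Ctsh had 10 distal regions in a stretch of 93.4 kb, a count that 6.62% of all genes reached. The strongest, 11.1 kb upstream of its start (chr9:90042783-90043282), had a fold of 23.65 in the series-level list, 22.36 in replicate 1 and 21.30 in replicate 2. The next member counts were 9 for Laptm5, 8 for Galc, 7 each for Arsb, Psap and Tfeb, and 6 each for Ctsb, Gm2a, Npc2 and Scarb2. Of the 47 members, 16 had 5 or more, where 18.0% of all protein-coding genes did. By role, the median number of distal regions was 4.5 for proteases, 2 for glycosidases, 3 for sulfatases, 5 for the lipid group and 1.5 for membrane proteins. Psap joined a weak promoter to 7 distal regions, the strongest 24.8 kb upstream with folds of 12.91 in the series-level list, 13.58 in replicate 1 and 11.78 in replicate 2.

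**Figure D4:**
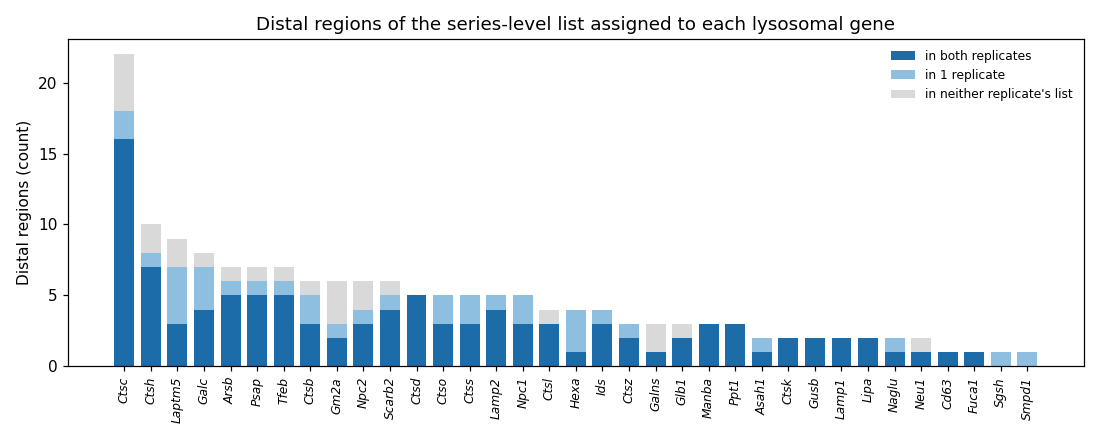
Number of distal regions of the series-level list (vertical axis) assigned to each lysosomal gene that has any, stacked by whether the region overlaps a region of both replicates' thresholded lists, of 1 or of neither. Ctsc has 22 regions, 16 of them in both replicates, and Ctsh has 10.

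The top 5% of all distal regions, those with a fold of at least 14.79, included 11 assigned to members, 6.71% of the members' and 5.00% of the others' distal regions. The strongest was assigned to Galc (chr12:97061375-97061851) with a fold of 27.47 in the series-level list, 26.86 in replicate 1 and 25.41 in replicate 2. It lies 1155 kb from a Galc start, in a stretch without another protein-coding start nearer by, so its assignment says little of Galc. The others were the Ctsh region, both Ctsc regions and the Ctsk and Ctss regions given above, a region 17.3 kb upstream of Lamp2 (16.60), an intronic region of Manba (16.42), 2 regions of Ppt1 (16.16 and 15.76) and a region 150 kb upstream of Ctso (15.79). All 11 were in the thresholded lists of both replicates. The like share for other distal regions of such fold was not computed, so this is no trait of the members.

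**Figure D5:**
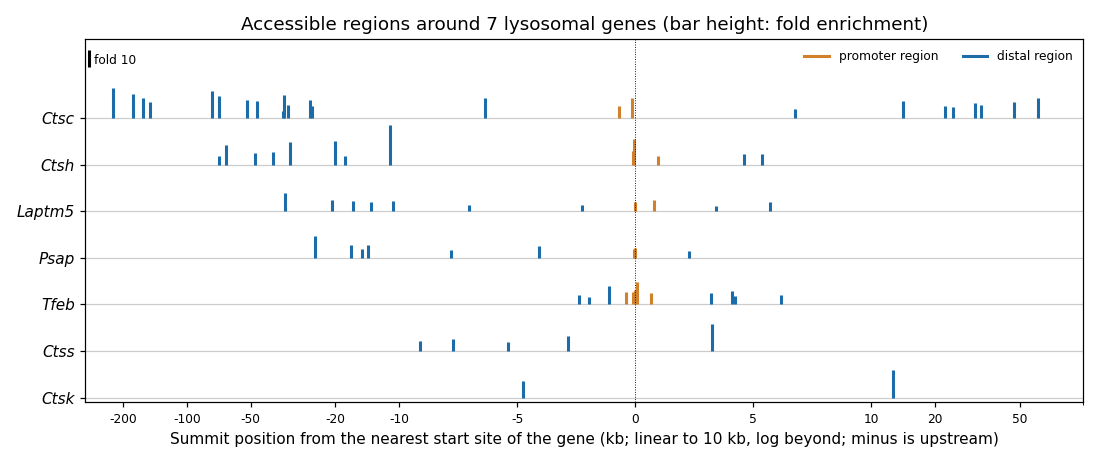
Position of the accessible regions around 7 lysosomal genes, as kb from the gene's nearest start site (horizontal axis, linear to 10 kb and logarithmic beyond, upstream to the left), with bar height showing fold enrichment on a common scale given by the black bar for fold 10. Ctsc regions spread from 224 kb upstream to 60.8 kb downstream, and Ctss and Ctsk have no promoter region (orange).

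In distal regions of members, CEBP matches were in 20.1% (33 regions) and in 16.9% of the others, PU.1 in 17.1% (28) and 11.7%, AP-1 in 15.2% (25) and 10.6%, and RUNX in 9.76% (16) and 11.3%. ETS matches of the promoter type were in 0 of the 164 members' regions and in 2.31% of the others, and SP matches in 0 and 1.49%. The sequences below show 1 match of PU.1, CEBP or AP-1 in each of 5 distal regions of cathepsin genes in the top 5% of fold, on the plus strand of GRCm38.p6, with the match in capitals.
Ctsh, 11.1 kb upstream, PU.1 (reverse strand), chr9:90043031-90043058: tgcatgtcttACTTCCTCattgctacat
Ctsc, 75.9 kb upstream, PU.1, chr7:88202162-88202189: gaacacaagtGAGGAAGTagtagccaaa
Ctsc, 224 kb upstream, CEBP (reverse strand), chr7:88054436-88054463: catatacagcTTCTGCAAtaggatctag
Ctso, 150 kb upstream, PU.1, chr3:81783104-81783131: caaagccacaGAGGAAGTcctggtgctg
Ctsk, 12.7 kb downstream, AP-1, chr3:95511971-95511997: agggctggcaTGACTCAcaaacaatgc
The PU.1 match of the Ctsh region began 51 bp before its summit, that of the Ctsc region 4 bp after it, and the AP-1 match near Ctsk 9 bp before it. The Ctso region also held a CEBP match 18 bp after its summit, and the farther Ctsc region another CEBP match 78 bp after its summit. The members' other distal regions in the top 5%, those of Galc, Lamp2, Manba, Ppt1 and Ctss, held no PU.1, CEBP or AP-1 match. The Ctss region of fold 16.27 held no match to any motif searched. A match is a string of letters in an accessible window, and binding was not measured.

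Genes that work with these 47 were described from 7 lists of 123 symbols, of which 122 matched a protein-coding gene. Open promoters were found for 103 of the 122, and for 101 of 111 without the cathepsins of restricted tissues, against the 62.7% of all genes. Replicate 1 alone called 102 of the 122, against 61.4% of all genes, and replicate 2 alone 98, against 58.1%. The proton pump that acidifies the lysosome (V-ATPase) had 18 of 25 genes open, led by Atp6v1h (fold 17.95), Atp6ap1 (15.15) and Atp6v0a1 (13.55). The 7 closed ones, Atp6v0a4, Atp6v0d2, Atp6v0e2, Atp6v1b1, Atp6v1c2, Atp6v1e2 and Atp6v1g3, include subunit forms known from kidney, osteoclasts and testis.

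The 10 genes that tag and carry hydrolases to the lysosome were all open in the series-level list, with a median fold of 8.12. They were led by Gga2 (11.45), Sort1 (10.87) and Gga3 (10.30), and Igf2r was not called in replicate 2. The 20 genes of the MiT/TFE factors and mTORC1, the nutrient-sensing kinase complex that holds TFEB in the cytoplasm, were open in that list too. They were led by Rptor (18.45), Rragb (17.09) and Zkscan3 (15.69). Rragd, with a fold of 5.755, was called in neither replicate's thresholded list. Beside Tfeb, its relatives, named after their values were seen, had promoter folds of 14.92 (Mitf), 11.74 (Tfec) and 10.12 (Tfe3), with 19, 11 and 2 distal regions.

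Other soluble enzymes were open in 23 of 24 genes, led by Aga (17.77), Scpep1 (16.92) and Man2b2 (12.95), and Dpp7 was closed. Replicate 2 alone called 20 of these enzymes. Other membrane proteins and channels were open in 20 of 22, led by Tpcn2 (12.87), Laptm4b (12.86) and Slc29a3 (12.76), with Lamp3, known from dendritic cells, and Lamp5, known from the brain and plasmacytoid dendritic cells, closed. All 10 genes of fusion and positioning were open, led by Vps41 (18.44), Vps33a (13.79) and Rab7 (12.99). Of 11 cathepsins of restricted tissues 2 were open, Ctse (10.98) and the neutrophil granule protease Ctsg (5.827). The 9 closed ones were the placental genes Cts3, Cts6, Cts7, Cts8, Ctsj, Ctsm, Ctsq and Ctsr, and Ctsw, a gene of cytotoxic lymphocytes. The CLEAR core was in the RefSeq promoter of 17 of 95 of these genes with an entry, where 3.58% of all genes with an entry had it. By list it was in 5 of 8 genes of enzyme delivery (Gga2, Gnptg, Igf2r, Nagpa and Sumf1), 4 of 19 of the V-ATPase (Atp6v0b, Atp6v0d1, Atp6v0e and Atp6v1a), 2 of 7 of fusion and positioning, 3 of 19 of the other membrane proteins and 2 of 15 of the other soluble enzymes. It was in 1 of 18 genes of MiT/TFE and mTORC1 control, Rragb, and in 0 of 9 cathepsins of restricted tissues.

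The replicates gave much the same picture of the members' promoters, and agreed less on their distal regions. All these regions come from a list thresholded on reproducibility, so part of the overlap is fixed in advance. Of the 76 promoter regions, 67 were in both replicates' thresholded lists (88.2%, against 80.9% of other promoter regions), and 2.63% of the members' and 8.10% of the others' were in neither. Of the 164 distal regions, 106 were in both (64.6%, against 61.6% of other distal regions), and 14.6% were in neither (16.8% of the others). Across the 44 members open in both replicates, the rank of promoter fold gave a Spearman rho of 0.916, and across 12468 other genes 0.898. These are correlations across genes of the same pair of libraries, and genes are not independent replicates. The median difference in percentile between the replicates was 4.68 points for members and 6.99 for other genes.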

How the data were processed

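ATAC-seq peak lists of 2 replicates of 1 group were used, on mm10 per the labels. Neither labels nor headers name the aligner, peak caller, Tn5 shift or read depth (not given in the sources used). The deposited narrowPeak rows carry the authors' fold enrichment, a ratio to a background that the labels do not define. Rows overlapping by 1 bp were merged, keeping the summit and fold of the strongest row. Summits within 1000 bp of any start of a protein-coding gene (GENCODE vM21) were promoter regions, and others were distal and went to the nearest start. Python 3.11.15, numpy 2.4.6, pysam 0.24.0 and matplotlib 3.10.9 were used, and the annotation step was tested on simulated regions. With 1 group there was no comparison of conditions and no test: shares and medians describe members beside other genes. Depth is unknown, so no counting interval can be given. The 8 single-replicate columns of the authors' between-replicate ranked list were not used.

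Members and gene lists were chosen with earlier results of these data known. Named genes were the closed members, the 8 highest and 5 lowest promoter folds, the 8 largest distal counts with ties, promoters whose call differed between replicates, CLEAR members and members with a distal region in the top 5% of fold. In the pathway lists they were the closed genes and the 3 highest folds. The others are named to account for every member. 1 B cell marker is not reported here. Sequences came from RefSeq promoters and the genome, GRCm38.p6. Alternatives tried were other lists, promoter windows, start sets, overlaps and motif definitions.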

Additional observations from a re-analysis of the deposited data

How the results depend on the processing

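A range of 1.5 times around 45 is loose, since there are only 47 members. Under all 9 alternatives the number of open members stayed within it. It ran from 44 to 45 when either replicate was left out (Lamp1 was lost in replicate 1 alone), was 46 in the looser replicated list, and was 32 (with 46.3% of other genes) when regions had to reach the list's median fold of 8.091. With the start at the 5′ end alone, or with starts of coding transcripts only, an alternative chosen after seeing the data, it was 44, without Arsa. The median promoter fold of open members was 8.86 without replicate 1 and 10.9 without replicate 2 (other genes 9.29 and 10.7), where the SD between the replicates' own medians is 1.42. The median number of distal regions per member was 2 without either replicate, 1 (others 0) with the stricter fold and 7 (others 4) when every distal region within 50000 bp was counted. The members' regions found in both replicates numbered 173 of 240, 166 at an overlap of at least 50 percent and 237 in the replicates' looser lists. Of the 42 members with a RefSeq promoter entry, 10 held the CLEAR core (23.8%, against 3.53% of other genes). With the 10-base palindrome it was 1 (2.38%, against 0.488%) and with the E-box 13 (31.0%, against 9.16%). Within 1000 bp of any start, 17 of all 47 members held the core, against 10.5% of other genes. The cause of these differences was not tested, apart from the smaller or larger sets that each setting admits by construction. No paired analysis was possible because there is 1 group. Depth is unknown, and a closed promoter is 1 that these lists do not hold.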
